A study of Homo sapiens with 2 samples.

Results

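Genes of gut mucus and its secretion were compared between 2 cultures of the human gastric cancer line NUGC4, one transfected with ANO5 siRNA and the other with a negative control siRNA. ANO5 encodes anoctamin 5, a membrane protein of a family that includes calcium-activated chloride channels and phospholipid scramblases, and the series was made to study its part in the cell cycle of gastric tumour cells. Both siRNAs were Stealth reagents given at 20 nmol/l with a lipid carrier, 24 h after seeding, and each group holds 1 array of biotin-labelled total RNA. Only 1 siRNA targeted ANO5, so the loss of ANO5 and any other effect of that siRNA cannot be told apart. The interval between transfection and harvest was not given in the sources used here. With 1 array a group there is no spread between replicates, so each difference holds for this pair of RNA samples alone and carries no replicate check.

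The set was named as REG4, the trefoil factors TFF1, TFF2 and TFF3, the mucins MUC1, MUC5AC and MUC13, the folding factor AGR2 and the transcription factor SPDEF. Of these 9 genes, 7 were in the table of 14526 named genes, each read by 1 transcript cluster, the group of probes that stands for a gene. TFF2 and MUC5AC were not analysed here. Values are log2 signal as deposited, and differences were taken as ANO5 siRNA minus control. A gene was called higher or lower at 1.5-fold, a log2 difference of 0.58. Of the 7 genes, 5 lay in the measured range, which holds the 9735 genes with a mean over both arrays of at least 6.05, and TFF1 and TFF3 lay below it.

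The mucus of the stomach and gut is built from secreted gel-forming mucins and from membrane mucins that coat the cell surface. Trefoil factors are small disulfide-rich peptides released with the gel-forming mucins, AGR2 is a disulfide isomerase of the endoplasmic reticulum that mouse intestine needs to make mucin, and SPDEF is an ETS-family factor that drives goblet cell maturation in mice. REG4 is a secreted C-type lectin-like protein of the regenerating family, found in goblet and enteroendocrine cells of the gut and in gastric and colorectal tumours.

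The upstream DNA of 4 members is shown because they cover the range of differences among the members with a promoter entry. REG4 was far higher, the membrane mucins MUC13 and MUC1 were moderately higher, and AGR2 was nearly equal. RefSeq's promoter table for GRCh38.p14 held 5 of the 7 genes, without TFF1 and TFF3, and TFF3 had the lowest difference of all members (-0.31). Each run below gives the 250 bases before the gene's start, 5′ to 3′ on the gene's strand, which is the minus strand for all 4. They lie at chr1:119811461-119811710 for REG4, chr3:124934752-124935001 for MUC13, chr1:155192916-155193165 for MUC1 and chr7:16805000-16805249 for AGR2. Capitals mark matches to any of 6 motifs searched on both strands. The core promoter motifs were the TATA box, spelled TATAAA, and the GC box bound by SP and KLF factors, spelled GGGCGG. Motifs of gut lineage factors were AGATAA for the GATA family, TGTTTNC for forkhead factors such as FOXA2, and CAATAAA for the intestinal CDX factors. The sixth was CCGGAT, an ETS site of the type that SPDEF binds.
REG4 upstream: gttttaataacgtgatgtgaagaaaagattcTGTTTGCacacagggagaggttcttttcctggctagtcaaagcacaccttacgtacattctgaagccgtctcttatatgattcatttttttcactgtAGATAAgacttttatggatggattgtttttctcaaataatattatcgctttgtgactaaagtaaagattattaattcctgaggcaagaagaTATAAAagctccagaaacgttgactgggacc
MUC13 upstream: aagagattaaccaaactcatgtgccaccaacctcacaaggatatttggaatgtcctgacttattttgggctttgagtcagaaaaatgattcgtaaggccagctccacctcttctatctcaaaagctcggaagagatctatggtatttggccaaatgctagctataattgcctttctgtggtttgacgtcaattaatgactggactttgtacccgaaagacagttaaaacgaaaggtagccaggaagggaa
MUC1 upstream: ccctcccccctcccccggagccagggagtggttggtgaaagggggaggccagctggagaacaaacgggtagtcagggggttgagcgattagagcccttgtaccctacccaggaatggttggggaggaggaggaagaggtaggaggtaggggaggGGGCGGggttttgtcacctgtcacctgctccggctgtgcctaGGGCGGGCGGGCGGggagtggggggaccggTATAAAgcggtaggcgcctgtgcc
AGR2 upstream: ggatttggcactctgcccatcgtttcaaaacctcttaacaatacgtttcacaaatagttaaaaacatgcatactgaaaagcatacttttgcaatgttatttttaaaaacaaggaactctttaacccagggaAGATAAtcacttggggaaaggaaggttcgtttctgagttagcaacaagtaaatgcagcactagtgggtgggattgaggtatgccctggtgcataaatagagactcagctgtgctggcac
REG4 had a TATA box match 31 to 26 bases before the start, a GATA match at 122 to 117 and a forkhead match at 219 to 213. AGR2 had a GATA match at nearly the same distance, 119 to 114 bases before the start, and no other. MUC1 had 1 TATA box match and 4 GC box matches, 3 of which overlap in 1 run, whereas MUC13 had none of the 6 motifs. SPDEF, the fifth gene with an entry, had none either. Among 35114 windows of the same length in the promoter table, the TATA box occurred in 10.7%, the GC box in 42.6%, the GATA motif in 9.17%, the forkhead motif in 15.5%, the CDX motif in 3.67% and the SPDEF-type motif in 5.85%. The GC content was 35.6% for REG4, 41.6% for MUC13, 66% for MUC1 and 40.4% for AGR2, with a median of 58% over all windows. Such matches describe the letters of these windows only.

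ANO5 itself had a log2 signal of 3.67 in the ANO5 siRNA array and 6.83 in the control array, a difference of -3.16, and its mean lay below the measured range. The cells carried the epithelial signature of their line on both arrays. All 8 epithelial markers examined, among them EPCAM, CDH1 and KRT8, were in the measured range, between 10.25 and 17.37 in the ANO5 siRNA array and between 9.24 and 17.06 in the control array. Of these 8, 5 were within 1.5-fold and CDH1, KRT19 and ELF3 were higher, beside 23.2% of all measured genes higher and 20.1% lower. CDH1 lay next to the limit, with a difference of 0.61. Of the 8 fibroblast, 8 blood cell and 6 endothelial markers listed, 3, 7 and 3 were in the table, and 1, 3 and 1 of these were in the measured range. Among these 5, COL1A2, CD68, HBA1 and VWF were within 1.5-fold. COL1A2 had 7.92 in the ANO5 siRNA array and 8.03 in the control array. The 1 called was LYZ, lysozyme, which gastric glands and Paneth cells also make. It was 2.11-fold lower, at 9.80 in the ANO5 siRNA array and 10.88 in the control array. Below the measured range, the endothelial marker KDR was also called lower (-0.87).

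REG4 stood far above the other members in its difference. Its log2 signal was 14.02 in the ANO5 siRNA array and 9.72 in the control array, a difference of 4.30, or 19.7-fold higher. The difference ranked number 4 of the 9735 measured genes. Neither value was near the low end of its array, since the REG4 signal exceeded 96% of all clusters in the ANO5 siRNA array and 68.6% in the control array. REG1A, the only other regenerating-family gene in the table, lay below the measured range at 4.93 in the ANO5 siRNA array and 4.65 in the control array.

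**Figure D1:**
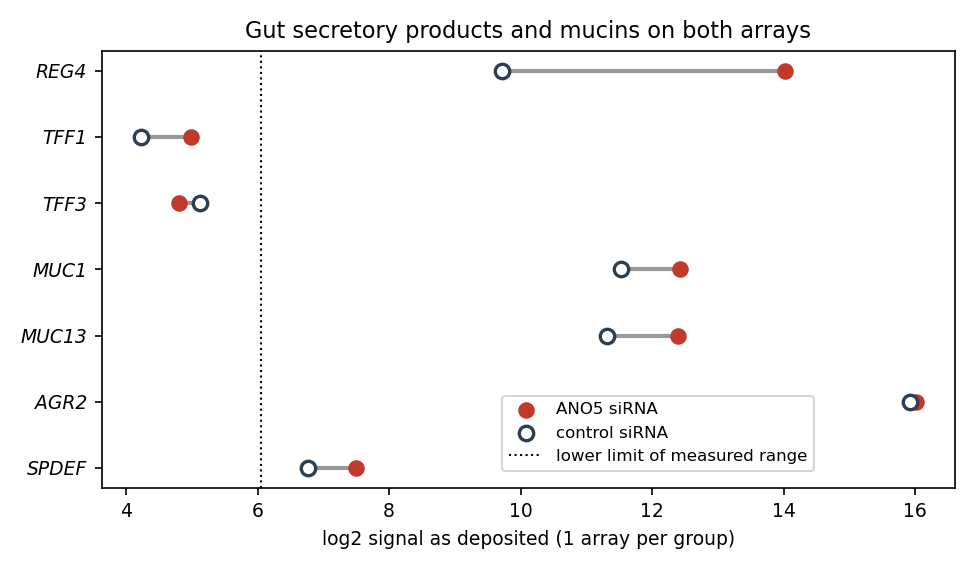
Log2 signal of the 7 members in the ANO5 siRNA array (filled) and the control siRNA array (open), 1 array per group, with a dotted line at the lower limit of the measured range (6.05). REG4 spans 14.02 and 9.72, MUC1 and MUC13 lie close together, both AGR2 points sit near 16, and TFF1 and TFF3 lie left of the line.

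MUC13 and MUC1 were moderately higher. MUC13, a transmembrane mucin of the gut surface, had 12.39 in the ANO5 siRNA array and 11.31 in the control array, a difference of 1.08 (2.11-fold). MUC1, the transmembrane mucin widely used as an epithelial tumour antigen, had 12.42 in the ANO5 siRNA array and 11.53 in the control array, a difference of 0.89 (1.85-fold). Both genes had high signal, above 89.4% and 89.6% of the clusters of the ANO5 siRNA array.

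The trefoil factors gave low signal on both arrays. TFF1 had 4.98 in the ANO5 siRNA array and 4.22 in the control array, a difference of 0.76 (1.69-fold), and exceeded only 24% and 11.7% of clusters there. TFF3 had 4.81 in the ANO5 siRNA array and 5.12 in the control array, a difference of -0.31, within 1.5-fold. No detection call was used, so whether either value lies above background is unknown, and the call of TFF1 was lost with a pseudocount of 16 (log2 difference 0.46).

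AGR2 had 16.01 in the ANO5 siRNA array and 15.92 in the control array, a difference of 0.09. Fewer than 1% of clusters had a higher signal on either array (0.749% and 0.836%). Of the 210 named genes with a mean of 15 or more, 11% were higher by 1.5-fold, beside 25.7% of the 3961 genes between 9 and 12, the range that holds REG4, MUC1 and MUC13. These level ranges were chosen after the values were seen. Its close relative AGR3 had 9.55 in the ANO5 siRNA array and 10.84 in the control array, a difference of -1.29 (2.45-fold lower). SPDEF had 7.49 in the ANO5 siRNA array and 6.77 in the control array, a difference of 0.72 (1.65-fold), at a level that exceeded 48.3% and 42.2% of clusters there.

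As a set, 5 of the 7 genes in the table were higher by 1.5-fold and 0 were lower, while 18.6% of all named genes were higher by this rule and 16.6% lower. Within the measured range 4 of 5 were higher, beside 23.2% of all measured genes, and 20.1% of measured genes were lower. None of these 5 entered the measured range through the ANO5 siRNA array alone. At 2-fold the count was 2, REG4 and MUC13, beside 11.2% of measured and 8.33% of all named genes. At 3-fold REG4 alone remained, beside 3.52% of measured genes higher. The median difference of the 7 genes was 0.76 and that of the 5 measured ones 0.89, beside 0.07 over all measured genes. The members were chosen with earlier results of these data known, and REG4 was known to be among the steepest rises. These counts and medians therefore add no independent support.

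**Figure D2:**
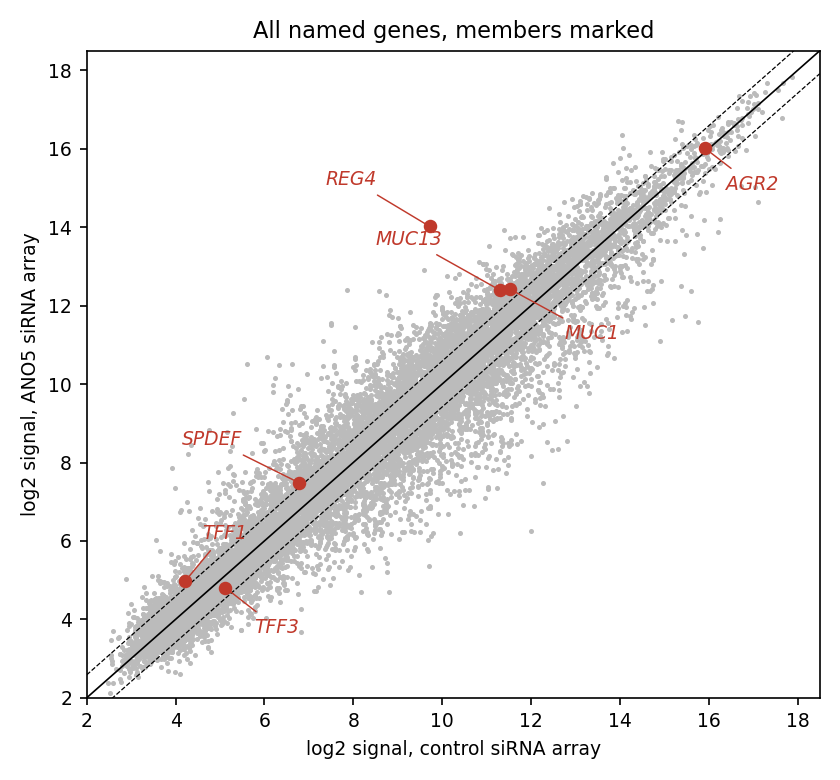
Log2 signal of all 14526 named genes (grey) in the ANO5 siRNA array (vertical) against the control siRNA array (horizontal), with the 7 members in red, a solid line of equal signal and dashed lines at 1.5-fold. REG4 lies well off the diagonal cloud, MUC1, MUC13 and SPDEF just above the upper dashed line, AGR2 on the diagonal at the top, and TFF1 and TFF3 at the low end, TFF3 between the dashed lines.

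REG4 was known to be among the steepest rises when the set was drawn up, so its gap from the other 6 members is descriptive only. The differences of those 6 ran from -0.31 to 1.08, with a median of 0.74 and an SD of 0.53 between genes. The REG4 difference exceeded that of MUC13 by 3.22, of MUC1 by 3.41, of TFF1 by 3.54, of SPDEF by 3.58, of AGR2 by 4.21 and of TFF3 by 4.61 on the log2 scale. Against the median of the 5 trefoil, mucin and AGR2 genes (0.76), the gap was 3.54, a ratio of 11.6 between the folds. That median is the value of TFF1. TFF1 and TFF3 lay below the measured range, and whether their signal lies above background is unknown. These gaps are differences of differences, since levels of different clusters cannot be set against each other. The SD is a spread between genes, and no test of the gaps can be made with 1 array a group.

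The gene nearest to REG4 in its values over the 2 arrays was ITGB6, an integrin subunit of epithelia, at a distance of 1.12 on the log2 scale. ITGB6 had 12.91 in the ANO5 siRNA array and 9.59 in the control array. Next came SLC7A11, a cystine transporter, at 1.32, and RAB3D, a GTPase of secretory granules, at 1.38. ZMAT3, a zinc finger protein, and CAPN5, a calpain, followed at 1.42 and 1.43. In this order the 5 genes had differences of 3.32, 2.65, 2.43, 2.30 and 2.47, all smaller than the 4.30 of REG4. With 2 arrays this likeness says only that their signal values lay nearest to those of REG4. Levels of different clusters cannot be set against each other.

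Other mucins were mostly at low signal. Of the 11 membrane mucin genes listed, 8 were in the table, with a median of 0.23. Of these 8, 3 were higher and 0 lower, beside 18.6% and 16.6% of all named genes. MUC1 and MUC13 were 2 of the 3, and the other was MUC3A, a membrane mucin of intestine, with 6.90 in the ANO5 siRNA array and 5.66 in the control array, which entered the measured range through its ANO5 siRNA value. The 5 below the range differed by between -0.33 and 0.46. Of the 6 secreted mucins listed, MUC2, the gel-forming mucin of intestine, and MUC6, that of gastric glands, were in the table, both below the range. MUC2 had 3.60 in the ANO5 siRNA array and 3.78 in the control array, and MUC6 had 4.40 in the ANO5 siRNA array and 4.74 in the control array.

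Among other goblet cell products, 9 of 13 were in the table, of which 3 were higher and 0 lower, beside 18.6% and 16.6% of all named genes. Only 2 of the 9 were in the measured range. BCAS1 had 11.77 in the ANO5 siRNA array and 8.80 in the control array, a difference of 2.97 (7.84-fold), the closest to REG4 in size among these product lists. ERN2, the goblet cell form of the IRE1 stress sensor of the endoplasmic reticulum, had 9.11 in the ANO5 siRNA array and 8.39 in the control array (1.65-fold). The 7 below the range, which include CLCA1, FCGBP and ITLN1, differed by between -0.07 and 0.74.

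Of 13 products of gastric epithelium in the table, 7 were higher and 1 was lower, with a median of 0.62, beside 18.6% of all named genes higher and 16.6% lower. All 6 in the measured range were called higher, beside 23.2% of all measured genes higher and 20.1% lower. Of these 6, ATP4A and VSIG1 passed the filter through their ANO5 siRNA value only and so had to differ in that direction. With the filter at the 50th percentile, the count higher was 3. CTSE, cathepsin E, an aspartic protease of gastric surface cells, had 9.35 in the ANO5 siRNA array and 6.62 in the control array (6.63-fold). ANXA10, an annexin of gastric epithelium, had 14.50 in the ANO5 siRNA array and 12.40 in the control array (4.29-fold). VSIG1, a junctional protein of stomach, had 7.26 in the ANO5 siRNA array and 5.61 in the control array (3.14-fold). The digestive enzyme precursors PGC, PGA3, PGA4 and PGA5 all lay below the range, and the PGA genes are near-identical copies whose probes may share signal. Also below it were the seventh gene called higher, PGA3 (0.62), and the 1 called lower, SULT1C2 (-0.66).

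**Figure D3:**
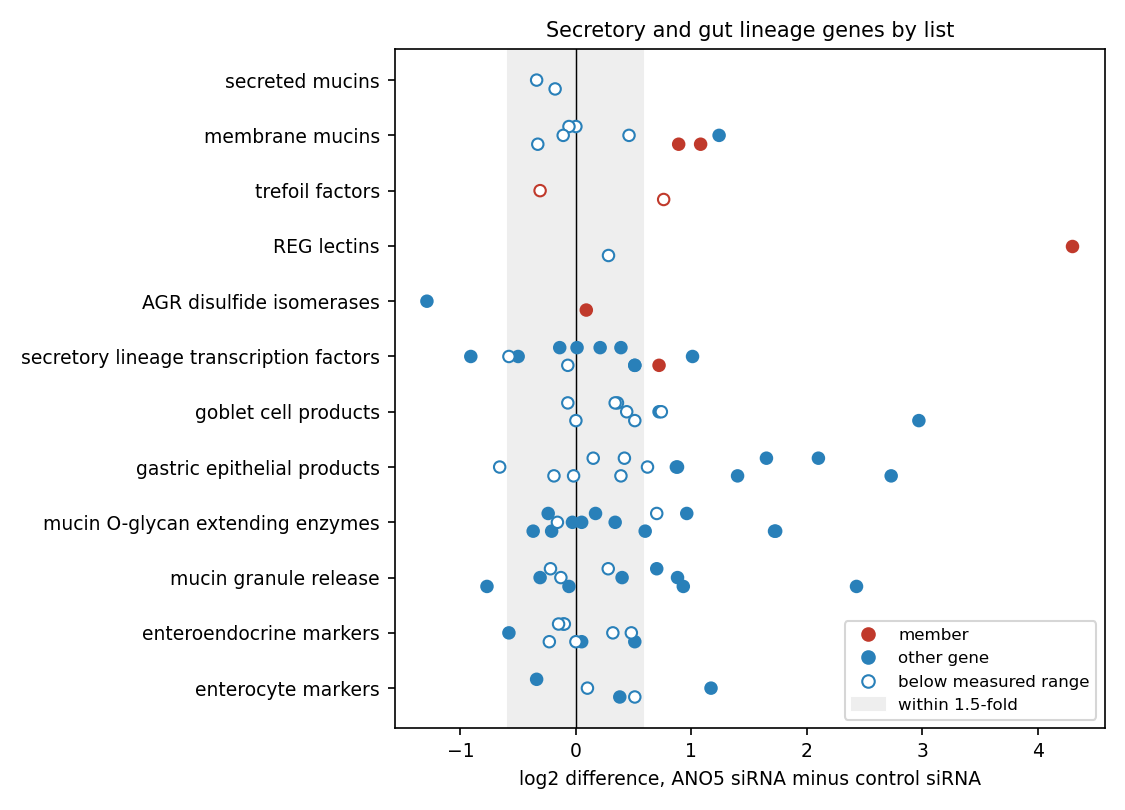
Log2 difference, ANO5 siRNA minus control siRNA, of every gene in the table for 12 lists of secretory and gut lineage genes, members in red, other genes in blue, open points below the measured range, and grey marking 1.5-fold. REG4 is the farthest point at 4.30, with BCAS1, CTSE, RAB3D and ANXA10 next, and the enteroendocrine markers sit within the grey band.

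Enzymes that extend mucin O-glycans differed gene by gene. Of 11 in the measured range 4 were higher, 0 lower and 7 within 1.5-fold, with a median of 0.17, beside 23.2% of all measured genes higher and 20.1% lower. One of the 4, GCNT3, lay next to the limit at 0.60, and the count was 3 under 75th percentile, quantile and loess scaling. With the filter at the 50th percentile the median was 0.60. FUT2, the fucosyltransferase of secretor status, had 8.67 in the ANO5 siRNA array and 6.94 in the control array (3.32-fold). B4GALNT3, which adds N-acetylgalactosamine to make LacdiNAc, had 10.70 in the ANO5 siRNA array and 8.98 in the control array (3.29-fold). B3GALT5, a galactosyltransferase of type 1 chains, was 1.95-fold higher. C1GALT1, which builds the core 1 glycan, had 11.46 in the ANO5 siRNA array and 11.83 in the control array, within 1.5-fold.

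Of 8 measured genes of mucin granule release, 4 were higher and 1 lower, with a median of 0.55, beside 23.2% and 20.1% of all measured genes. The count higher was 3 after loess. RAB3D had 12.80 in the ANO5 siRNA array and 10.37 in the control array (5.39-fold). The SNARE proteins VAMP8 and SNAP23 were 1.91-fold and 1.84-fold higher, and the apical SNARE STX3 was 1.71-fold lower. MARCKS, a substrate of protein kinase C in mucin release from airway cells, differed by -0.06.

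Of 10 transcription factors of the secretory lineage in the measured range, 2 were higher, 1 was lower and 7 were within 1.5-fold. The share higher was near the 23.2% of all measured genes, and 20.1% of all measured genes were lower. Their median was 0.30, and -0.07 with the filter at the 50th percentile. Beside SPDEF, the epithelial ETS factor ELF3 was higher, at 10.25 in the ANO5 siRNA array and 9.24 in the control array (2.01-fold). FOXA2, a forkhead factor of endoderm, was lower, at 7.89 in the ANO5 siRNA array and 8.80 in the control array (1.88-fold). XBP1, the factor that expands the secretory apparatus, had 11.13 in the ANO5 siRNA array and 11.12 in the control array.

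Markers of other gut lineages, among them the enteroendocrine cells that are known to make REG4, mostly lay within 1.5-fold. None of the 10 enteroendocrine markers in the table was called (0 higher, 0 lower), beside 18.6% of all named genes higher and 16.6% lower. Of the 10 markers, 6 lay below the measured range, where 9.37% of genes were higher and 9.33% lower. The other 4 were in the measured range. These were NEUROG3, INSM1, GAST and SYP, with differences of 0.05, -0.58, -0.11 and 0.51, and INSM1 lay just inside the 1.5-fold limit. SYP, at 6.46 in the ANO5 siRNA array and 5.95 in the control array, entered the measured range through its ANO5 siRNA value. CHGB, a granin of endocrine granules, had 4.03 on each array. Of the 5 enterocyte markers present, 1 was higher and 0 were lower, beside the same 18.6% and 16.6% of all named genes. The 1 higher was CDH17, the liver-intestine cadherin, at 12.51 in the ANO5 siRNA array and 11.34 in the control array (2.25-fold). VIL1, the brush border protein villin, had 13.79 in the ANO5 siRNA array and 13.41 in the control array. In bulk RNA, a larger share of cells with a gene on and more RNA per cell cannot be told apart.

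**Figure D4:**
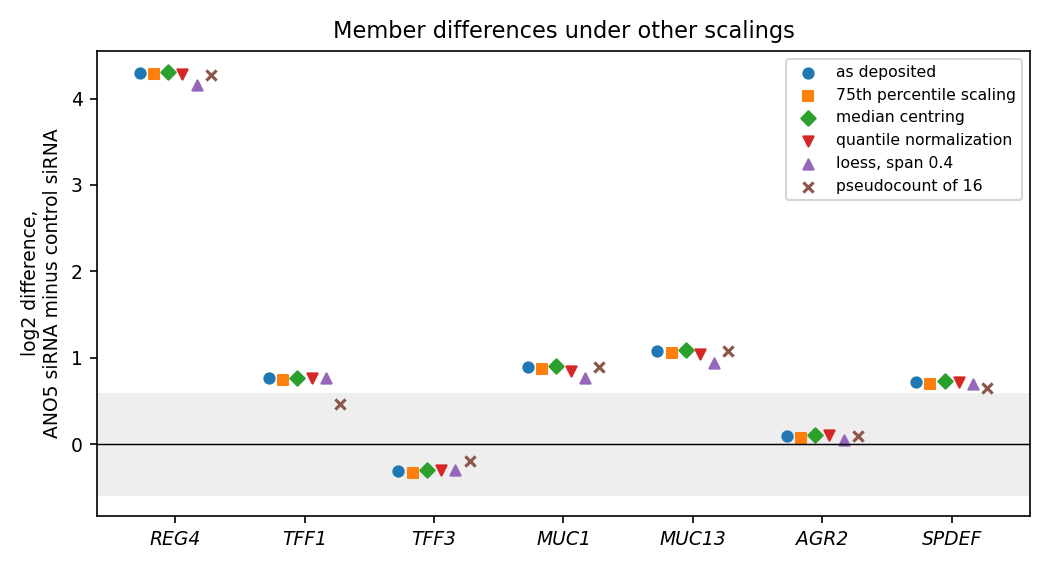
Log2 difference, ANO5 siRNA minus control siRNA, of each member as deposited and under 5 alternatives, 4 scalings and a pseudocount, with grey marking 1.5-fold. REG4 stays between 4.16 and 4.31, and TFF1 with the pseudocount (0.46) is the point that enters the grey band.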

How the data were processed

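Log2 signal of 2 arrays was used as the authors deposited it, with 2 decimals and values between 2.13 and 18.15. The log2 scale was inferred from this range. Agilent Feature Extraction 12.0.3.1 is credited to the submitters' processing notes, although the cluster identifiers have a form not used by that maker, so how the values were made is uncertain, and neither a probe summary, background correction, normalization nor genome build was given in the sources used here. Array medians were 7.68 (ANO5 siRNA) and 7.69 (control siRNA), and 75th percentiles of named clusters differed by 0.02, so no scaling was added. No column of values was left unused. The number of arrays limits the precision.

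Of 17345 clusters, 14544 had 1 gene symbol in the platform's annotation, 0 several and 2801 none. All 14526 genes matched a current RefSeq record by Entrez identifier. Where a gene had several clusters (16 genes), the one with the highest mean was kept. The measured range starts at the 33rd percentile of mean level.

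Members and the 15 gene lists were chosen with earlier results of these data known. Named genes were the members, ANO5, up to 3 measured genes each way past 1.5-fold per list and the 5 genes nearest to REG4 by Euclidean distance. Genes named beyond this rule were chosen after their values were seen. Calls and scalings were run on simulated data with planted 2-fold changes and small added noise. That run checks the code only and does not measure how reliable the calls are in these data. Alternatives were 4 scalings (loess span 0.4), a pseudocount of 16, other fold sizes and other filters. Python 3.11.15, numpy 2.4.6, pandas 2.3.3 and statsmodels 0.14.6 were used.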

Additional observations from a re-analysis of the deposited data

How the results depend on the processing

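The differences of REG4 (4.16 to 4.31), MUC13 (0.94 to 1.09), MUC1 (0.76 to 0.90), SPDEF (0.65 to 0.73), AGR2 (0.05 to 0.11) and TFF3 (-0.33 to -0.20) kept their direction and their side of 1.5-fold under quantile, loess, median and 75th percentile scaling and with a pseudocount of 16. TFF1 was 0.46 with the pseudocount, within 1.5-fold, since a pseudocount shrinks differences at low signal. The gap between REG4 and the median of the trefoil, mucin and AGR2 genes ran from 3.41 to 3.82. Because the threshold itself changed, members higher numbered 2 at 2-fold and 1 at 3-fold, in the table and in the measured range, beside 11.2% and 3.52% of measured genes higher and 11.3% and 5.36% lower. Measured members higher by 1.5-fold numbered 3 with the filter at the 50th percentile, beside 24.3% of measured genes higher and 20.6% lower. With no filter, list medians moved to 0.23 for membrane mucins, 0.44 for goblet cell products, 0.62 for gastric products and 2.29 for REG lectins, and with the filter at the 50th percentile 3 gastric products were higher and medians moved to 0.60 for O-glycan enzymes, 0.70 for granule release, -0.07 for secretory transcription factors and -1.08 for blood cell markers. Calls higher numbered 3 for O-glycan enzymes under 75th percentile, quantile and loess scaling, and 3 for granule release after loess. INSM1 passed 1.5-fold lower under 75th percentile scaling and loess. Each member has 1 cluster, so a median over clusters could not be run. No paired analysis was possible because each group holds 1 array.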
